A study of Mus musculus with 4 samples.

Results

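Spp1-high smooth muscle cells are the smooth muscle cells of the angiotensin II-treated ascending aorta that carry many transcripts of Spp1, the gene of osteopontin. They were taken from the SHF AngII and CNC AngII single-cell libraries by a rule on measured counts. A cell barcode was kept if it had at least 500 detected genes and at most 10% of its UMIs (unique molecular identifiers, each standing for 1 captured transcript) from mitochondrial genes. A kept barcode counted as a smooth muscle cell if it had at least 5 UMIs of Myh11, the smooth muscle myosin heavy chain, and no UMI of Pdgfra, Ptprc or Pecam1, the defining genes of fibroblasts, leukocytes and endothelial cells. Smooth muscle cells with 5 or more Spp1 UMIs are called Spp1-high, and those with none Spp1-free. This gave 657 Spp1-high cells, 150 in SHF AngII and 507 in CNC AngII, of 10730 smooth muscle cells in these libraries and of 28540 kept barcodes in the 3 libraries read. Because the cells were chosen on their own counts, every value below describes them and no test was made.

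The study asked how the response to AngII, a peptide hormone that constricts vessels and raises blood pressure, compares between cells of the ascending aorta with different embryonic origins. All groups were male mice of the Mef2c-mTmG strain, in which a fluorescent reporter marks the lineage, and living single cells were sorted by that mark before droplet capture with 10x Chromium 3′ v3 chemistry. SHF stands for the second heart field; CNC is written in the labels without its full form and names the group of the other origins. The groups were SHF at baseline, SHF after 3 days of AngII and CNC after 3 days of AngII, with 1 library each; a baseline sample of CNC was not analysed here, and the age of the mice and the number of mice per library are not given in the sources used here.

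Osteopontin is a secreted phosphoprotein that binds integrins and CD44, acts on cell adhesion and migration, and restrains the growth of hydroxyapatite crystals. In arteries it is little expressed by resting contractile smooth muscle and is a well-known gene of the modulated state, in which smooth muscle cells lower their contractile proteins, make more matrix and may divide or take on genes of cartilage and bone. Mgp, another inhibitor of mineralisation, and Tnfrsf11b, the decoy receptor osteoprotegerin, are also known from calcified arteries.

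Mouse Spp1 (ENSMUSG00000029304.14) lies on the plus strand at chr5:104435118-104441050 of GRCm38, in the GENCODE M21 annotation. Another gene of that annotation, Gm42793, overlaps its 5′ end on the same strand and is not among the genes listed in either AngII table, so how reads from the overlap were assigned is not known. The promoter stretch of Spp1 is shown because all cells described here were chosen by this gene. It is the 250 bases before the RefSeq start, chr5:104434861-104435110 on the plus strand of GRCm38.p6, with the capitals marking a match to the RUNX letters TGTGGT on the opposite strand, 128 bases before the start.
Spp1 promoter: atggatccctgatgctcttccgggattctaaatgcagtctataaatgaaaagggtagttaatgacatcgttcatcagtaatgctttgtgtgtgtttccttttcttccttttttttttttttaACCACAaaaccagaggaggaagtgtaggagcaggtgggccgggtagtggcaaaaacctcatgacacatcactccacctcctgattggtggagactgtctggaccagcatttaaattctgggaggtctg
On both strands, TGTGGT occurs in 14.2% of 27025 promoters of this length in the RefSeq table. The stretch holds no match to the AP-1 letters TGANTCA, found in 6.85% of promoters, or to the SOX letters ACAANGG, found in 11.6%. It also holds none to the CArG box in its strict form CCWWWWWWGG, W being A or T, found in 1.41%. This strict form of the CArG box, the site of serum response factor, was found in the promoters of Myl9 and Vcl among 19 contractile genes with an entry. It was found in 0 of the 7 contractile genes described below as lower in both libraries. Boxes with other letters, or outside these 250 bases, were not looked for, so a 0 does not show that the site is absent. A match is a string of letters and not a shown binding site.

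The tables held between 92474476 and 150954701 UMIs and between 9412 and 11166 barcodes per library, and the rule on genes and mitochondrial UMIs kept 8579 barcodes of the SHF baseline library, 9490 of SHF AngII and 10471 of CNC AngII. Spp1-high cells were the deeper cells: their median depth was 22838 UMIs against 12737 in Spp1-free cells of SHF AngII, and 21276 against 12488 in CNC AngII. A cut at a fixed UMI number takes deep cells more readily. Gene counts and many ratios are therefore also given against Spp1-free cells drawn to match the depth of the Spp1-high cells. These cells, called depth-matched below, come from a random draw that was not repeated (149 cells in SHF AngII, 507 in CNC AngII). All 7 smooth muscle markers besides Myh11 were detected in the Spp1-high cells, with a summed level of 48213 CPM (UMIs per 1000000 UMIs of the summed cells) in SHF AngII, and of 44079 CPM for the CNC library, against 70783 and 66047 CPM in Spp1-free cells. The 12 macrophage markers besides Ptprc summed to 0.80 CPM in SHF AngII, with Lyz2, C1qa, C1qb, C1qc and 6 others at 0, and to 265 CPM in CNC AngII, against 1.6 and 226 CPM in Spp1-free cells. The 7 fibroblast markers besides Pdgfra summed to 239 and 159 CPM, against 203 and 118 CPM. In SHF AngII 5 of the 7 were lower in Spp1-high cells, with Pcolce2 alone at 137 against 81.5 CPM. In CNC AngII 6 of the 7 were higher in Spp1-high cells, as were 9 of the 12 macrophage markers. The part of these other markers in the results was not tested beyond the alternatives given at the end. Scrublet called 3 Spp1-high cells of SHF AngII (2.0%) and 11 of CNC AngII (2.17%) doublets, against 1.08% and 1.24% of Spp1-free cells; these cells stay in. The AngII libraries shared 25 kept barcodes, none of them Spp1-high in both.

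In SHF AngII, 150 of 4523 smooth muscle cells were Spp1-high, 3.32% (95% exact Clopper-Pearson interval 2.81 to 3.88%). In CNC AngII the number was 507 of 6207, or 8.17% (7.50 to 8.88%). The share was thus higher in the CNC library, and the intervals did not overlap. Intervals here cover counting error only, and with 1 library per group the difference has no replicate check. The libraries also differed in leukocytes that carry Spp1. Of kept barcodes with 5 or more Spp1 UMIs, 256 of 1036 in CNC AngII had a Ptprc UMI, against 4 of 420 in SHF AngII. The part of this in the shares was not tested. In SHF baseline 0 of 2090 smooth muscle cells reached 5 Spp1 UMIs, and the highest count there was 1 UMI. This allows a share of up to 0.144% by the limit of 3 counts (the exact interval ends at 0.176%). Kept barcodes of that library were shallower, with a median of 10396 UMIs against 13459 in SHF AngII and 12774 in CNC AngII. Its table lists 18760 genes against 32285, and the part of these differences in the count of 0 was not tested. The same baseline library held 101 other kept cells with at least 5 Spp1 UMIs, all of them set aside by the Myh11, Pdgfra or Pecam1 part of the rule. The shares depend on depth: with cells of 5000 or more UMIs thinned to 5000 and the rule applied to the thinned counts, they were 1.05% in SHF AngII and 2.45% in CNC AngII.

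Spp1 was very unevenly spread. Another 301 smooth muscle cells of SHF AngII (6.65%) and 782 of CNC AngII (12.6%) had 1 to 4 Spp1 UMIs, yet the Spp1-high cells held 95.2% and 95.1% of all Spp1 UMIs of smooth muscle cells. Among the Spp1-high cells the median was 17 UMIs (quartiles 8 and 45) in SHF AngII and 18 UMIs (9 and 44.5) in CNC AngII, with highest counts of 1871 and 1131. The 10 highest cells carried 51.1% of the smooth muscle Spp1 UMIs in SHF AngII and 17.8% in CNC AngII. At the edge of the rule, 18 cells of SHF AngII had 5 Spp1 UMIs and 19 had 4, with Acta2 at 25708 and 32201 CPM and Mgp at 11899 and 13773 CPM. In CNC AngII, 42 cells had 5 and 59 had 4, with Acta2 at 25134 and 26491 CPM and Mgp at 15472 and 18817 CPM. The histogram of Spp1 counts shows a continuous tail in both libraries with no gap at the cut.

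**Figure D1:**
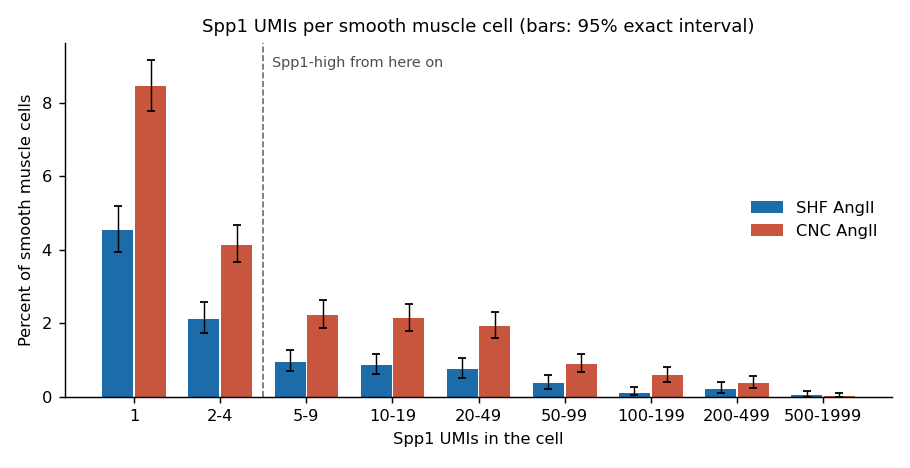
Percent of smooth muscle cells (y axis) by the number of Spp1 UMIs in the cell (x axis, bins of unequal width) in SHF AngII (blue) and CNC AngII (red), with 95% exact intervals; cells without Spp1 are not drawn. The CNC bar is the higher of the pair in every bin but the last, and bins of 5 UMIs or more make up the Spp1-high cells.

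The transcriptome of Spp1-high cells was compared with that of Spp1-free cells of the same library as the log2 ratio of CPM + 1, over genes with a mean of at least 10 CPM in these classes. A gene is called higher or lower when the ratio is past 1.5-fold. In SHF AngII 210 of 6781 genes (3.10%) were higher and 231 (3.41%) lower. In CNC AngII 195 of 6825 genes (2.86%) were higher and 156 (2.29%) lower. Of the 6602 genes compared in both, 120 (1.82%) were higher in each library, 111 (1.68%) lower in each, and 0 past 1.5-fold in opposite directions. The shared higher genes were 64.2% of the SHF list and 75.5% of the CNC list, and the shared lower genes 51.9% and 73.0%. The ratios of the libraries had a Pearson correlation of 0.825 over genes, which are no replicates, and the same gene chose the cells in each. Depth matching left fewer genes past the fold, 176 higher and 144 lower in SHF AngII, 90 and 54 in CNC AngII, and 46 and 25 in both, and 33 of the 120 and 22 of the 111 shared genes were still past it in each library.

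**Figure D2:**
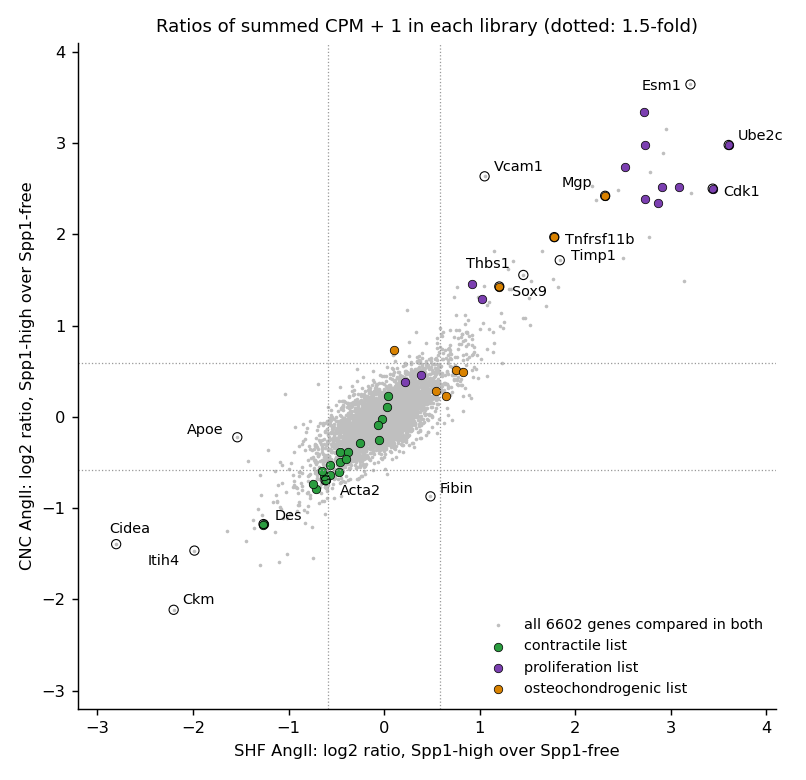
Log2 ratio of Spp1-high over Spp1-free cells in SHF AngII (x axis) against CNC AngII (y axis), 1 point per gene, with contractile, proliferation and osteochondrogenic genes coloured, selected genes circled and dotted lines at 1.5-fold. Contractile genes lie from the centre to the lower left, proliferation genes and Mgp at the upper right, and Vcam1 and Apoe off the diagonal.

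Contractile genes were lower as a group. Of 20 contractile genes compared in SHF AngII, 7 were lower and 0 higher past 1.5-fold, with a median log2 ratio of -0.47; of 21 in CNC AngII, 9 were lower and 0 higher, with a median of -0.49. Of all genes compared 3.41% were lower and 3.10% higher in SHF AngII, and 2.29% and 2.86% in CNC AngII. The medians over all genes compared were -0.03 and -0.01. Acta2, the smooth muscle actin, stood at 24080 CPM in Spp1-high and 36799 CPM in Spp1-free cells of SHF AngII, and at 22444 and 36381 CPM in CNC AngII. Its log2 ratios were -0.61 (95% counting interval -0.62 to -0.60) and -0.70 (-0.70 to -0.69). Per cell, the median Acta2 level was 25299 CPM against 37377 CPM in SHF AngII and 23255 against 37546 CPM in CNC AngII, and 82.0% and 88.6% of Spp1-high cells lay below the Spp1-free median.

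The 7 contractile genes lower in both libraries were Acta2, Cnn1, Tpm1, Tpm2, Csrp1, Des and Synpo2. Cnn1, the actin-binding calponin, was 1236 against 2022 CPM in SHF AngII (log2 ratio -0.71) and 1106 against 1921 CPM in CNC AngII (-0.80). Des, the intermediate filament desmin, had ratios of -1.26 and -1.18 although its level differed widely between the libraries, 699 CPM in Spp1-free cells of SHF AngII and 101 CPM in those of CNC AngII. Synpo2, an actin-bundling protein of the Z-disc and dense body, also had ratios of -1.26 and -1.18. Tagln (-0.47 and -0.38) and Smtn (-0.25 and -0.29) were on the low side without passing 1.5-fold, whereas Cald1 (-0.02 and -0.02) and Vcl (-0.07 and -0.09) lay near 0. Against depth-matched cells the contractile medians were -0.30 in both libraries, with 4 and 3 genes past 1.5-fold, and Acta2 stood at -0.40 and -0.45, Cnn1 at -0.69 and -0.64, and Des at -1.0 and -1.02.

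**Figure D3:**
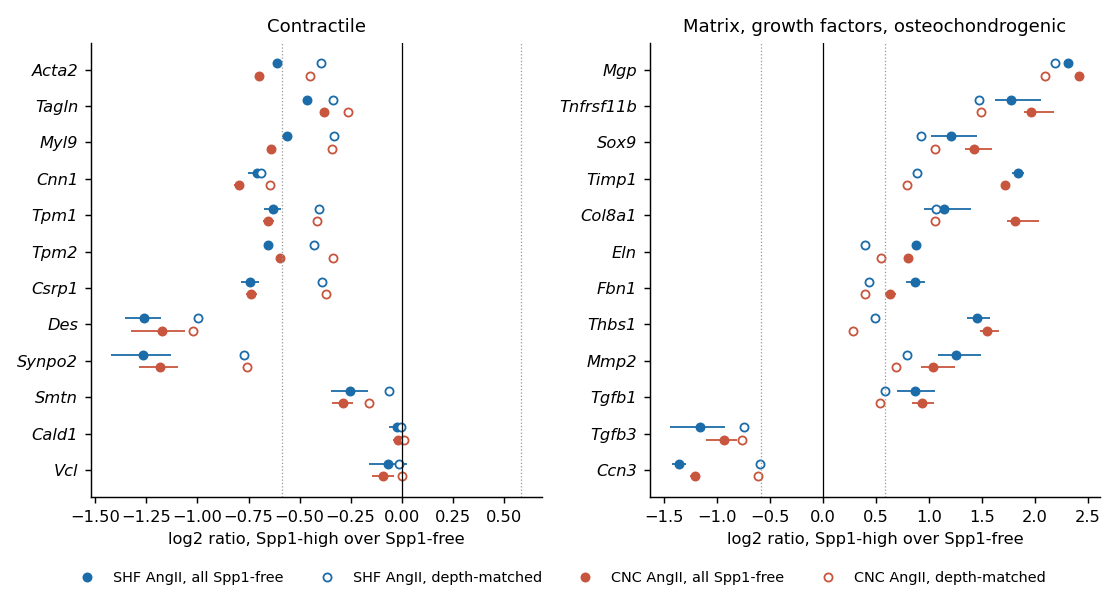
Log2 ratio of Spp1-high over Spp1-free cells (x axis) for 12 contractile genes (left) and 12 genes of matrix, growth factors and the osteochondrogenic list (right); filled points use all Spp1-free cells and open points depth-matched ones, lines are 95% counting intervals of the filled ratios without the added 1 CPM, and dotted lines mark 1.5-fold. Open points lie nearer 0 than filled ones for most genes, but on the same side of 0 for all drawn here except Cald1 in CNC AngII and Vcl in CNC AngII.

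Regulators of the contractile programme were read next. Of 8 regulators compared in SHF AngII and 7 in CNC AngII, 0 passed 1.5-fold in either direction, beside 3.10 and 3.41% of all genes in SHF AngII and 2.86 and 2.29% in CNC AngII, shares at which a list of this length would hold few or none. Myocd, the coactivator of serum response factor, had ratios of -0.31 and -0.27, and Srf itself -0.33 and -0.05. Klf4, a repressor of contractile genes during phenotypic modulation, was at 188 against 141 CPM in SHF AngII (0.41) and 184 against 143 CPM in CNC AngII (0.36). Non-muscle cytoskeletal genes leaned higher, with medians of 0.26 and 0.24, but only Tmsb10, an actin-sequestering thymosin, passed 1.5-fold in both (0.65 and 0.64), and against depth-matched cells the medians were 0.04 and 0.07.

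Mgp, matrix Gla protein, was the most abundant of the genes that were higher. It made up 30272 CPM of the Spp1-high cells against 6088 CPM of the Spp1-free cells in SHF AngII, and 31628 against 5901 CPM in CNC AngII. The log2 ratios were 2.31 (2.30 to 2.32) and 2.42 (2.42 to 2.43), or 4.97-fold and 5.36-fold, and depth matching moved them only to 2.19 and 2.09. The level varied strongly from cell to cell, with a per-cell median of 14922 CPM (quartiles 6547 and 35934) in Spp1-high cells of SHF AngII and 17165 CPM (6736 and 42893) in those of CNC AngII. Of the Spp1-high cells, 92.0% and 88.8% lay above the Spp1-free medians of 3168 and 2930 CPM. Over the alternative processing settings the Mgp ratio ranged from 2.13 to 3.09 in SHF AngII and from 2.05 to 2.64 in CNC AngII.

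Of the other osteochondrogenic genes, Sox9 and Tnfrsf11b were higher in both libraries. Sox9, the transcription factor of cartilage, was 55.2 against 23.4 CPM in SHF AngII (log2 ratio 1.21) and 64.7 against 23.4 CPM in CNC AngII (1.43), with depth-matched ratios of 0.93 and 1.06. Tnfrsf11b was 57.1 against 15.9 CPM (1.78) and 59.5 against 14.4 CPM (1.97), with depth-matched ratios of 1.48 and 1.49. Genes of bone itself were at or near 0: in the Spp1-high cells Runx2 had 6 UMIs in SHF AngII and 5 in CNC AngII, Alpl 4 and 2, Ibsp 0 and 3, and Bglap 0 and 0. Runx1, a related factor, was 20.3 against 7.68 CPM in SHF AngII (1.29) and 12.6 against 5.28 CPM in CNC AngII (1.11), the latter under the 10 CPM minimum. The whole list had 10 of 12 compared genes higher in SHF AngII, beside 3.10% of all genes, with a median of 1.25. In CNC AngII it had 4 of 8, beside 2.86% of all genes, with a median of 0.63. Chad, Comp, Cytl1 and Runx1 were compared in SHF AngII alone.

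The larger SHF figure rests in part on 3 cells. Chad, which encodes the cartilage matrix protein chondroadherin, was seen in 3 Spp1-high cells of SHF AngII, and these held all 570 of its UMIs in the class. The same 3 cells held 95.7% of the UMIs of Comp, 97.1% of those of Cytl1 and all 56 UMIs of Col2a1, also cartilage genes. In them Acta2 was at 16507 CPM, Mgp at 47841 CPM and Spp1 at 5940 CPM. Without these cells Comp stood at 9.89 CPM against 7.80 CPM in Spp1-free cells and Cytl1 at 3.30 against 2.18 CPM, and the list median of SHF AngII was 0.71 over 9 genes. Only 1 Spp1-high cell of CNC AngII had a UMI of Chad, and whether the SHF cells belong to smooth muscle was not tested beyond the rule.

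Several general markers of modulated smooth muscle stood with Mgp. Of 9 such genes compared in both libraries, 5 were higher in each, beside 1.82% of all genes: Vcam1, Tnfrsf11b, Timp1, Mgp and Col8a1. The list medians were 0.67 over 12 genes in SHF AngII and 1.72 over 9 genes in CNC AngII. Against depth-matched cells these medians were 0.74 and 0.80. Ly6a, Lum and Tcf21 were compared in SHF AngII alone, so the medians of the libraries are not over the same genes. Timp1, an inhibitor of metalloproteinases, was 849 against 237 CPM in SHF AngII (log2 ratio 1.84, 1.79 to 1.90) and 622 against 189 CPM in CNC AngII (1.72, 1.68 to 1.76). Its depth-matched ratios were lower, 0.89 and 0.80, but past 1.5-fold in both. Vcam1, an adhesion receptor for leukocytes, was at 76.8 against 36.5 CPM in SHF AngII (1.05) and 183 against 28.7 CPM in CNC AngII (2.64), and its depth-matched ratios were nearer each other, 0.80 and 1.48. Lgals3 (0.29 and 0.13) was not past 1.5-fold. The fibroblast-leaning markers of the list were mixed. In SHF AngII Ly6a and Tcf21 were at -0.51 and -0.20, whereas Lum and Dcn were above 0 without passing 1.5-fold. There 5 cells held 64.9% of the Lum UMIs and 72.8% of the Dcn UMIs of the Spp1-high cells. In CNC AngII Dcn was above 0 without passing 1.5-fold, and Ly6a, Tcf21 and Lum were too low to be compared.

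The matrix genes split. Of all genes compared in both libraries 1.82% were higher in each and 1.68% lower in each. The medians of the collagen and elastic fibre list were 0.28 and 0.11. Of its 25 genes compared in both libraries, Col8a1, Eln, Fbn1, Fbln2 and Loxl3 were higher in each and Mfap4 and Ltbp4 lower in each. Against depth-matched cells Col8a1 alone of these 7 was past 1.5-fold in both libraries. Eln, which encodes elastin, was 7313 against 3964 CPM in SHF AngII (log2 ratio 0.88) and 8810 against 5050 CPM in CNC AngII (0.80), with depth-matched ratios of 0.40 and 0.55. Fbln2, a fibulin of elastic fibres, was 248 against 75.9 CPM (1.69) and 198 against 84.4 CPM (1.22), and 0.92 and 0.38 against depth-matched cells. The fibrillar collagens leaned higher without passing 1.5-fold: Col1a1 had ratios of 0.56 and 0.42 and Col3a1 0.28 and 0.11. Mfap4, a microfibril protein, was lower at -0.68 and -0.94. None of the 12 basement membrane genes passed 1.5-fold in both libraries.

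Among matricellular proteins Thbs1 and Ccn4 were higher in both libraries and Ccn3 and Sparcl1 lower; of these Ccn3 alone was past 1.5-fold in both against depth-matched cells. Thbs1, thrombospondin 1, was 220 against 79.4 CPM in SHF AngII (1.46) and 135 against 45.4 CPM in CNC AngII (1.55), but only 0.49 and 0.28 above depth-matched cells. Ccn3, a growth-restraining member of its family, was 472 against 1213 CPM (-1.36) and 369 against 857 CPM (-1.21). Tnc, Postn and Ccn2, which are usual genes of AngII-treated aorta, were at 0.53 and 0.22, 0.21 and 0.02, and 0.29 and -0.04. Of 10 proteolysis genes compared in both libraries, Mmp2, Mmp3, Mmp14, Timp1 and Plaur were higher in both, beside 1.82% of all genes. Mmp14 and Plaur were higher in neither against depth-matched cells. Mmp2, a gelatinase, was 62.1 against 25.4 CPM (1.26) and 38.3 against 18.1 CPM (1.04), with depth-matched ratios of 0.79 and 0.69. Mmp3 had ratios of 1.54 and 1.49, but 5 cells held 82.5% of its UMIs in the Spp1-high cells of SHF AngII and 58.5% in CNC AngII. Acan, the large cartilage proteoglycan, was 0.94 and 0.55.

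Ligands of the TGF-beta family went different ways. Tgfb1 was 76.8 against 41.7 CPM in SHF AngII (0.87) and 87.5 against 45.3 CPM in CNC AngII (0.93), whereas Tgfb3 was 34.4 against 78.0 CPM (-1.16) and 36.4 against 70.5 CPM (-0.94). The BMP-responsive inhibitors Id2 (-0.70 and -0.67) and Bambi (-0.78 and -0.89) were lower in both libraries, and the receptors Tgfbr1 (-0.20 and -0.01) and Tgfbr2 (-0.29 and -0.20) were within 1.5-fold. Against depth-matched cells Tgfb1 stood at 0.58 and 0.54, short of 1.5-fold, Tgfb3 at -0.75 and -0.77, Id2 at -0.39 and -0.41 and Bambi at -0.44 and -0.63. Ace, the enzyme that makes angiotensin II, was 76.0 against 36.5 CPM (1.04) and 63.4 against 30.6 CPM (1.03), and its depth-matched ratios were 1.21 and 1.23. Agtr1a, the main angiotensin receptor of mouse vessels, had 9 and 10 UMIs in the Spp1-high cells and could not be compared.

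Of the 8 osteopontin receptor genes compared 0 were past 1.5-fold in both libraries, beside 1.82% of all genes higher and 1.68% lower. Cd44 was 46.9 against 35.4 CPM in SHF AngII (0.40) and 64.9 against 39.5 CPM in CNC AngII (0.70), and -0.01 and 0.15 against depth-matched cells. Itgav and Itgb3, which form the integrin best known to bind osteopontin, were at 0.42 and 0.32 and at 0.39 and 0.38. Of the inflammatory list, Cxcl12, a chemokine, and Ptgs2, the inducible cyclooxygenase, were higher in both (0.78 and 0.95, and 0.75 and 1.11), but their depth-matched ratios were 0.13 and -0.02 and 0.09 and 0.42. Ccl2, the monocyte chemoattractant, was 25.8 against 10.8 CPM in CNC AngII (1.19), with 76.2% of its UMIs in 5 cells. In SHF AngII it had 13 UMIs in the Spp1-high cells, 3.47 against 10.8 CPM, and was under the minimum.

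Cell cycle genes had the highest median of the lists in both libraries. Of 13 compared in SHF AngII 11 were higher, beside 3.10% of all genes, with a median log2 ratio of 2.73. Of 17 in CNC AngII 15 were higher, beside 2.86% of all genes, with a median of 2.5. Ube2c, a mitotic ubiquitin-conjugating enzyme, was 89.9 against 6.46 CPM in SHF AngII and 112 against 13.3 CPM in CNC AngII. Few cells carried them: UMIs of at least 3 of 10 mitotic genes were found in 12 Spp1-high cells of SHF AngII (8.0%, 4.20 to 13.6%) against 0.467% of Spp1-free cells, and in 58 of CNC AngII (11.4%, 8.80 to 14.5%) against 1.46%. With cells thinned to 5000 UMIs the shares were 5.37% against 0.348% and 8.88% against 1.12%. Left out as shallower were 1 Spp1-high and 53 Spp1-free cells of SHF AngII, and 0 and 77 of CNC AngII. Thinning evens out detection, but the classes were still those chosen at full depth. Cells in mitosis are deep cells, with a median of 33697 UMIs in Spp1-high cells of SHF AngII, and against depth-matched Spp1-free cells the list medians were 0.33 and 1.03, with Mki67 at -0.20 and 1.30. Mki67 in SHF AngII thus lay on the other side of 0 against the 149 cells drawn, a random draw that was not repeated. On counts thinned to 5000 UMIs, 4.03% of Spp1-high and 0.398% of Spp1-free cells of SHF AngII had a Mki67 UMI. The part of depth in the change of sign was not tested.

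Mitotic cells were also left out, a choice made after seeing the data. The count of genes higher in both libraries was then 71 in place of 120, and the count lower in both 84 in place of 111. Of the first 120, 70 were still past 1.5-fold in each library. Mgp stood at 2.25 and 2.40 and Timp1 at 1.82 and 1.65 without them.

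Some lists held no gene past 1.5-fold in both libraries, where 1.82% of all genes were higher and 1.68% lower, so a count of 0 is near the share of all genes. These were 18 genes of the unfolded protein response, 12 of ribosome biogenesis, 17 of glycolysis and hypoxia and 16 of the immediate early response, the numbers compared in both libraries. Their medians lay between -0.17 and -0.02. Hspa5, the main chaperone of the endoplasmic reticulum, was at -0.45 and -0.44, and Fos at -0.50 and -0.32. Of the lipid and lysosome list only Ctsk, a matrix-degrading cathepsin, was higher in both (0.92 and 0.85; depth-matched 0.34 and 0.60).

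Outside these lists, the named genes of highest ratio in both libraries were led by Esm1, a secreted proteoglycan best known from endothelium, at 33.6 against 2.75 CPM in SHF AngII (log2 ratio 3.21) and 74.1 against 5.01 CPM in CNC AngII (3.64). Its depth-matched ratios were 1.61 and 2.15. The endothelial markers besides Pecam1 summed to 18.1 CPM in the Spp1-high cells of SHF AngII, with 6 of 8 at 0, and to 15.6 CPM in CNC AngII, with 5 of 8 at 0, against 14.5 and 14.3 CPM in Spp1-free cells. Smoc2, a calcium-binding matrix protein, was at 1.77 and 1.51, and at 1.52 and 0.99 against depth-matched cells. Cdkn3, Cdca8, Stmn1, Cks2, Tpx2, Tk1, Gins2 and Smc2, all tied to cell division, were among the 15 as well, beside Mgp, Tnfrsf11b, Timp1 and Thbs1. Against depth-matched cells 9 of the 15 were past 1.5-fold in both libraries, and 9 were without the mitotic cells. Among those that were not, by depth, were Cdca8 (0.30 in SHF AngII), Tpx2 (0.52 in SHF AngII), Tk1 (0.56 in CNC AngII) and Smc2 (0.14 in SHF AngII).

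Ckm and Casq1, genes of muscle energy and calcium, were among the 10 named lower genes. Ckm, muscle creatine kinase, was 5.07 against 26.9 CPM in SHF AngII (-2.20) and 5.54 against 27.3 CPM in CNC AngII (-2.12). Casq1, a calcium-storing protein of the sarcoplasmic reticulum, was at -1.30 and -1.63. Depth matching left both at -1.10 or lower, with Ckm at -2.68 and -1.73 and Casq1 at -1.32 and -1.10. Cidea (-2.80 and -1.40), Gstm1 (-1.44 and -1.36), Art3 (-1.64 and -1.25) and Ihh (-1.15 and -1.26) completed the named lower genes together with Itih4, Ccn3, Synpo2 and Des. Against depth-matched cells 8 of these 10 were past 1.5-fold in both libraries; Gstm1 (-0.42 and -0.61) and Ihh (-0.35 and -0.81) were not, in SHF AngII.

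All 6 compared genes of a list associated with lineage in earlier results of these data had ratios below 0 in each library. Of these 2, Igfbp2 and Itih4, were past 1.5-fold in both, beside 1.68% of all genes. Tnnt2, a member, was not below 0 throughout: inside clusters it was higher in Spp1-high cells of cluster 0 (0.24) and cluster 4 (0.59) of SHF AngII and of cluster 2 of CNC AngII (0.49), and with the stricter cell filter it stood at 0.10 in CNC AngII. Igfbp2, which binds insulin-like growth factors, was 567 against 1372 CPM in SHF AngII (-1.27) and 768 against 1623 CPM in CNC AngII (-1.08), and depth matching gave -1.27 and -0.94. Igfbp2 was also called on counts thinned to 5000 UMIs, with Spp1-high still called at full depth. Of smooth muscle cells with an Igfbp2 UMI 3.03% (2.41 to 3.76%) were Spp1-high in SHF AngII, and of those without 3.77% (2.95 to 4.75%). In CNC AngII the shares were 7.33% (6.58 to 8.14%) and 10.8% (9.33 to 12.4%). Cells with Igfbp2 were deeper, with medians of 14523 against 11621 UMIs in SHF AngII and 13899 against 12378 in CNC AngII. Tnnt2, the cardiac troponin T that is high in the SHF library, was 187 against 505 CPM there (-1.43) and 39.8 against 56.0 CPM in CNC AngII (-0.48), but -0.09 and -0.17 against depth-matched cells. Itih4 was at -1.99 and -1.47. Among the genes that could be named, the 5 with the widest gap between libraries towards CNC AngII were Vcam1, Cidea, Apoe (-1.54 in SHF AngII, -0.22 in CNC AngII), Ifi27l2a (-1.04 and 0.25) and Sept11 (-0.69 and 0.36). Against depth-matched cells Ifi27l2a was at -1.33 and -0.68, with its CNC ratio on the other side of 0, Sept11 at -0.70 and 0.09, Apoe at -0.58 and -0.43, and Cidea at -1.72 and -0.76. The 5 with the widest gap towards SHF AngII were Fibin (0.49 and -0.87), P2rx1 (-0.75 and -1.55), Ltbp2 (0.83 and 0.06), Tk1 (2.5 and 1.74) and Btrc (0.71 and -0.03). Against depth-matched cells P2rx1, with 41 UMIs in the SHF cells, was at 0.51 and -1.18, on the other side of 0 in SHF AngII. Tk1 was then at 1.29 and 0.56, the latter short of 1.5-fold. Of Apoe, 59.8% of the UMIs in the CNC cells and 57.5% of those in the SHF cells lay in 5 cells. For Ifi27l2a these shares were 62.0% and 64.5%, the latter of only 31 UMIs. Of Fibin, 56.5% of the UMIs in the SHF cells lay in the 3 Chad-positive ones. Without those cells Fibin stood at 20.1 CPM, under the 31.7 CPM of Spp1-free cells.

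Levels were then followed over the number of Spp1 UMIs, in classes of 0, 1 to 4, 5 to 9, 10 to 19 and 20 or more. Together the contractile genes took 9.89, 8.73, 7.28, 7.95 and 5.88% of all UMIs in these classes of SHF AngII, and 9.16, 8.05, 7.13, 6.54 and 5.50% in CNC AngII. The CNC library thus ran down at every step, and the SHF library at every step but that to the class of 10 to 19, which holds 39 cells. In CNC AngII 13 of 21 contractile genes were lower at each of the 4 steps, Acta2, Cnn1, Tagln and Tpm1 among them. In SHF AngII these were 2 of 20, Flna and Synpo2. The share of all genes compared that fell at every step was not counted, so these numbers describe the list alone. Mgp was higher at each step in both libraries, from 6088 to 44818 CPM in SHF AngII and from 5901 to 42336 CPM in CNC AngII. Timp1 in the class of 20 or more was at 1060 and 816 CPM, and Vcam1 at 99.6 and 260 CPM. Depth ran with the classes as well, from a median of 12737 to 28006 UMIs in SHF AngII and from 12488 to 22494 in CNC AngII, and its part in these trends was not tested class by class. Among Spp1-high cells thinned to 5000 UMIs, the Spearman correlation of Spp1 with Mgp was 0.40 over 149 cells of SHF AngII and 0.38 over 507 cells of CNC AngII, and that with Acta2 -0.30 and -0.25; cells of 1 library share its preparation, and no p is given.

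**Figure D4:**
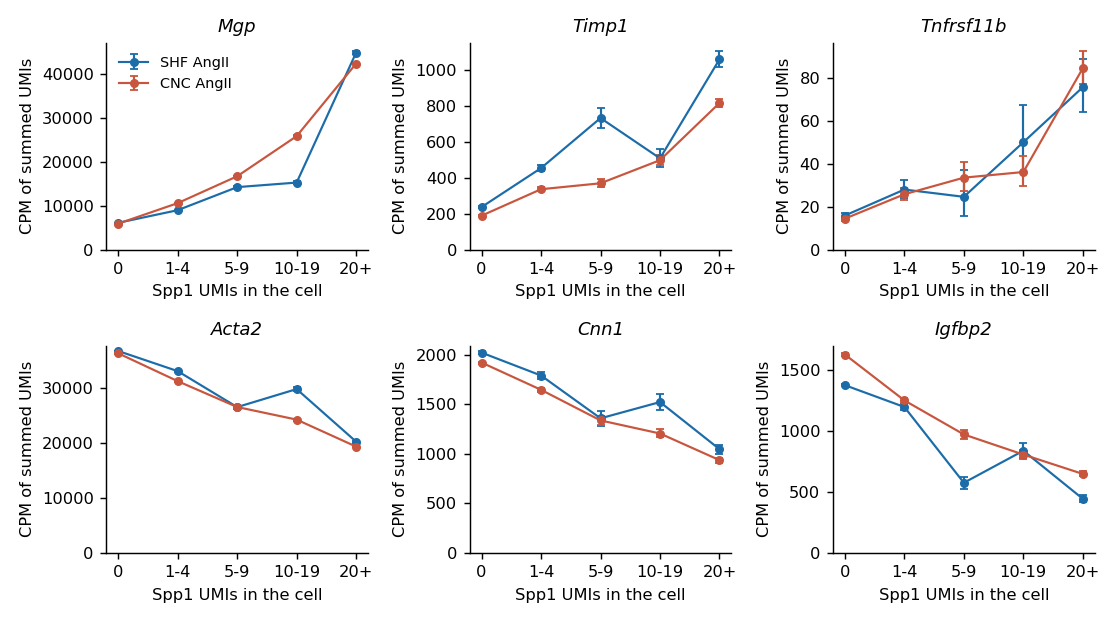
CPM of summed UMIs (y axis, from 0) of 6 genes in smooth muscle cells grouped by their Spp1 UMIs (x axis) in SHF AngII (blue) and CNC AngII (red), with 95% exact Poisson intervals. Mgp reaches 44818 CPM in SHF AngII, and 42336 CPM for the CNC library, while Acta2, Cnn1 and Igfbp2 are lowest in the class of 20 or more Spp1 UMIs.

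Spp1-high cells were not spread evenly over the smooth muscle cells. Clustering each library apart, without Spp1 and Myh11, gave 8 clusters in each. In CNC AngII cluster 2, with Vcam1, Thbs1, Mgp and Timp1 among its leading genes, was 27.6% Spp1-high (25 to 30.3%) and held 60.2% of the Spp1-high cells against 11.4% of the Spp1-free ones. Cluster 5, led by mitotic genes such as Ube2c, Prc1 and Stmn1, was 36.4% Spp1-high (28.1 to 45.4%). In SHF AngII cluster 4, with Thbs1 and Fbln2 among its leading genes, was 18.7% Spp1-high (14.3 to 23.7%) and held 35.3% of them. The largest part there, 42.7%, lay in cluster 0, led by Srpx2, Dkk3 and Egr3, of which 5.08% was Spp1-high. Other clusters held few: cluster 2 of SHF AngII, led by Des and Igfbp2, was 1.37% Spp1-high, and cluster 3, led by Tnnt2, 0.241%. Some lay in clusters with markers of other cell types among their leading genes. Cluster 6 of SHF AngII, with Pi16 and Dcn, held 12 (9.23% of its cells), cluster 4 of CNC AngII, with Dcn and Serpinf1, 10 (6.67%), and cluster 6 of CNC AngII, with C1qa and Lyz2, 7 of 41 (17.1%). Without those clusters, a choice made after seeing the data, the shares were 3.15% and 8.14% and the Mgp ratios 2.37 and 2.49.

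**Figure D5:**
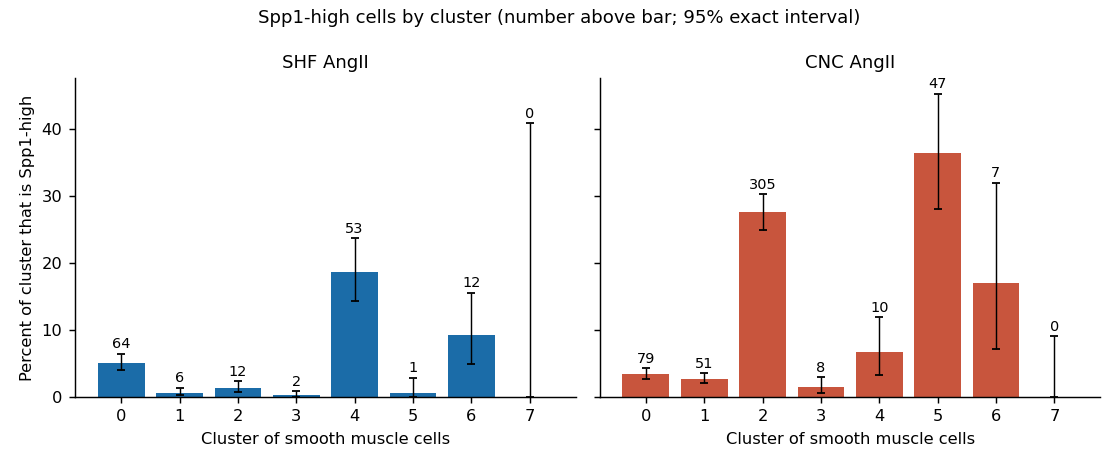
Percent of each cluster of smooth muscle cells that is Spp1-high (y axis) by cluster number (x axis; numbers are assigned in each library apart and do not correspond), with 95% exact intervals and the number of Spp1-high cells above each bar. Cluster 4 of SHF AngII and clusters 2 and 5 of CNC AngII stand above the others that hold more than 20 Spp1-high cells.

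The comparison was repeated inside the 6 clusters with at least 20 Spp1-high and 20 Spp1-free cells. Mgp was higher in Spp1-high cells in all 6, with log2 ratios from 1.31 in cluster 0 of CNC AngII to 2.63 in its cluster 1. Acta2 was lower in all 6, from -0.53 in cluster 4 of SHF AngII to -0.24 in cluster 0 of CNC AngII, in no case past 1.5-fold, and the contractile medians lay between -0.30 and -0.13. Esm1 ratios lay between 1.38 and 3.70. In cluster 2 of CNC AngII, which holds most of its Spp1-high cells, 34 genes were higher and 10 lower past 1.5-fold, against 195 and 156 over all smooth muscle cells. In cluster 0 of SHF AngII the numbers were 127 and 187. Thbs1 differed from cluster to cluster, at 1.05 in cluster 0 of SHF AngII and -0.01 in its cluster 4. Ccn3 differed too, from -1.31 in cluster 1 of CNC AngII to 0.08 in cluster 4 of SHF AngII. In cluster 2 of CNC AngII it was at -0.22.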

How the data were processed

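Per the labels' protocols, living cells sorted by lineage were captured with 10x Chromium 3′ v3 chemistry. The submitters' processing notes name fastp, STAR 2.5, HTSeq 0.6.1 and mm10, with no role or order; the authors deposited matrices of UMI counts per gene and barcode, which were used as deposited. Replicates are absent, with 1 library per group, so no test across samples was made. Each class was read as the sum of its cells' UMIs, scaled to CPM; ratios are log2((CPM + 1)/(CPM + 1)). Intervals are exact (95%) and cover counting error only. Doublets were marked with Scrublet and kept, and left out in an alternative. Clustering used scanpy 1.11.5 (2000 variable genes, 30 components, 15 neighbours, Leiden resolution 0.5). Python 3.11.15, numpy 2.4.6, scipy 1.17.1, matplotlib 3.10.9 and R 4.3.3 were used, with edgeR 4.0.16 for TMM factors alone.

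Named genes had to have a UMI in 10% or more of the class with the higher level, leaving out ribosomal protein genes and markers of other cell types. They are the 15 higher and 10 lower genes past 1.5-fold in both libraries with the largest smaller ratio, the 5 of highest and 5 of lowest difference between libraries, and genes of the lists; Igfbp2 and Tnnt2 were added. 1 gene that this rule names is not reported here. The cells and lists were chosen with earlier results of these data known. Class sums were also simulated as Poisson counts, with no variation between cells. In SHF AngII 100 of 100 genes made 2-fold higher and 99 of 100 made lower were recovered, with 9 unchanged genes past 1.5-fold among 6712. In CNC AngII 100 of 100 and 100 of 100 were recovered, with 0 among 6753. Such counts check the computation and cannot show how ratios hold where few cells carry a gene.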

Additional observations from a re-analysis of the deposited data

How the results depend on the processing

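The share was higher in CNC AngII than in SHF AngII under every setting run. Shares of Spp1-high cells (SHF AngII, CNC AngII) were 4.29 and 10.1% from 3 Spp1 UMIs, 2.37 and 5.94% from 10, 5.26 and 13.8% with 1500 genes and 5% mitochondrial UMIs, 1.17 and 3.51% without cells holding any fibroblast, macrophage or endothelial marker UMI, and 1.05 and 2.45% on counts thinned to 5000; in CNC AngII they were 7.20% with 20 Myh11 UMIs and 7.44% without mitotic cells. Counts of genes past the fold follow in the order SHF higher and lower, CNC higher and lower, both higher and lower. They were 126, 104, 124, 88, 82 and 63 with a pseudocount of 10 CPM, 814, 800, 678, 382, 411 and 199 with no minimum, 60, 76, 48, 74, 35 and 59 with a minimum of 50 CPM, and 67, 42, 80, 26, 47 and 18 at 2-fold. They were 127, 187, 34, 10, 12 and 5 within the cluster with most Spp1-high cells, 176, 144, 90, 54, 46 and 25 against depth-matched cells, and 987, 943, 507, 746, 148 and 238 without marker-holding cells, which leaves only 14 and 30 Spp1-high cells, the first under the minimum of 20 used for clusters. Thinning gave 458, 558 and 256 for SHF higher, SHF lower and CNC lower, 20 Myh11 UMIs 101, 68 and 60 for CNC lower, both higher and both lower, and leaving out mitotic cells 117 and 71 for CNC higher and both higher.

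The contractile median stayed below 0 under every setting. In SHF AngII it was -0.58 from 10 Spp1 UMIs, -0.53 without marker-holding cells, -0.31 with 20 Myh11 UMIs, -0.53 thinned and -0.30 depth-matched. In CNC AngII it was -0.44 from 3 Spp1 UMIs, -0.56 from 10, -0.43 with the stricter cell filter, -0.59 without marker-holding cells, -0.36 with 20 Myh11 UMIs, -0.40 without mitotic cells, -0.42 thinned, -0.56 with 50 CPM, -0.31 depth-matched over the genes then compared, and -0.43 as a mean of per-cell shares. Of values past 1.5-fold, these turned sign; several list medians near 0 also crossed it. Without marker-holding cells (14 and 30 Spp1-high cells left) the proliferation median was -0.24 in CNC AngII, with Cdkn3 -0.49, Cdca8 -0.71, Stmn1 -0.25, Tk1 -0.58 and Smc2 -1.06, and in SHF AngII Mmp3 was -3.73 and Comp -1.79. Without mitotic cells the proliferation median was -0.19 in SHF AngII, with Smc2 -0.13 and Mki67 -0.41, and Tk1 was -0.085 in CNC AngII. Mki67 was -0.20 in SHF AngII against depth-matched cells. The cause was not tested. Leaving out clusters with other cell types' markers, Chad-positive cells or mitotic cells was chosen after seeing the data.

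No paired analysis was possible because each group has 1 library, and leaving out a replicate was not possible either. Depth limits genes under 10 CPM, and the cut at 5 Spp1 UMIs selects deeper cells.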
